A study of Mus musculus with 2 samples.

Results

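The genes described are 10 mouse microRNA genes that answer to the tumour suppressor p53 or share a family with genes that do: Mir34a, Mir34b, Mir34c, Mir449a, Mir449b and Mir449c, called the miR-34 family here, and Mir192, Mir194-1, Mir194-2 and Mir215, called the miR-192 clusters. They were chosen by name and not by their values, though with earlier results of these data known. All 10 had an entry among the 2202 microRNA genes in the count tables. The libraries are microRNA sequencing of C2C12 myocytes, made from an immortalised mouse myoblast line of C3H thigh muscle and differentiated for 72 h. There is 1 group of 2 libraries, numbered by the labels as biological replicates 1 and 2, with no treatment, no undifferentiated cells and no messenger RNA, so neither p53 nor its activity was measured. The labels give the replicates separate biosample entries without saying that separate cultures were differentiated, so the spread given is that between these libraries and may be technical in part.

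p53 is a transcription factor that is stabilised by DNA damage and other stress and switches on genes that stop the cell cycle or lead to cell death. Mir34a and the joint transcript of Mir34b and Mir34c are among its best known microRNA targets, and their products hold down cell-cycle and survival proteins. The Mir449 genes lie in a gene of multiciliated epithelia and are best known there. Mir192, Mir194 and Mir215 are abundant in liver, gut and kidney and have also been described as induced by p53.

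The mature sequences show why the genes fall into families, because the seed (bases 2 to 8, in capitals) largely sets which messenger RNAs a microRNA binds. Sequences were taken from RefSeq (GRCm38.p6) and matched 9 of the 10 genes by symbol. Printed, 5′ to 3′, are arms of these genes that carry a shared seed and the arms that tell the Mir194 copies apart. Mir449b and miR-34c-5p were not analysed here by sequence.
miR-34a-5p: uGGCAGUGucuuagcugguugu
miR-34b-5p: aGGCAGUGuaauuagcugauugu
miR-449a-5p: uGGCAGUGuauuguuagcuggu
miR-449c-5p: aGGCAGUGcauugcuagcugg
miR-34b-3p: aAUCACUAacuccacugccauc
miR-34c-3p: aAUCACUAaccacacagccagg
miR-192-5p: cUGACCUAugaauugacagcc
miR-215-5p: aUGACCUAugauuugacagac
miR-194-5p: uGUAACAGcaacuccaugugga
miR-194-1-3p: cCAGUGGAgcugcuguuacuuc
miR-194-2-3p: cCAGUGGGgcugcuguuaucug

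The seed GGCAGUG stands in all 4 of the miR-34 and miR-449 5p arms printed, a list without miR-34c-5p and Mir449b, and UGACCUA in miR-192-5p and miR-215-5p. Compared base by base from the 5′ end without gaps, miR-34a-5p and miR-449a-5p were identical at 15 of 22 positions, and miR-34a-5p and miR-34b-5p at 11 of 22. However, miR-34b-5p has 23 bases and miR-34a-5p has 22, and their differences other than U1A all lie from base 10 on. Without gaps, bases shifted by an extra base count as different, so these figures do not rank the pairs by likeness. miR-192-5p and miR-215-5p differed only by C1A, A12U and C20A (the base in miR-192-5p, its position from the 5′ end, and the base in miR-215-5p). The 3p arms of Mir34b and Mir34c shared the seed AUCACUA and were identical at 17 of 22 positions. The 5p arm of both Mir194 genes is the same 22 bases, and their 3p arms differ at 4 positions: A8G, C19U, U20C and C22G (the base of Mir194-1 first, the base of Mir194-2 last). A read of the full miR-194-5p therefore fits both genes. The counts appear to hold only reads that map to 1 place, so such a read would enter neither Mir194 count. No hairpin of Mir34b, Mir34c or Mir215 had an exact stretch of 12 bases in common with any other hairpin among the 2202. The longest shared by Mir34a was 12 bases, by Mir192 13 bases and by Mir449a 14 bases. The search took exact matches only, so it does not show whether arms alike but for a mismatch could be confused. The 5p arms of Mir34b and Mir34c were not compared.

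The genes lie at 5 places of the mm10 genome. Mir34a is on the plus strand of chromosome 4 (150068454 to 150068555), where its 3′ end overlaps the exon of an unclassified transcript, Gm37795. Mir34c (51103034 to 51103110) and Mir34b (51103562 to 51103645) lie 451 bases apart on the minus strand of chromosome 9, opposite an intron of Btg4, a gene of the antiproliferative BTG family. Mir449c (113035983 to 113036091), Mir449b (113037419 to 113037498) and Mir449a (113037534 to 113037624) are in introns of Cdc20b on chromosome 13 and on its strand. Mir194-2 (6264643 to 6264728) and Mir192 (6264844 to 6264932) are 115 bases apart on the plus strand of chromosome 19 and overlap no other annotated gene. Mir194-1 (185313319 to 185313385) and Mir215 (185313581 to 185313692) are 195 bases apart on the plus strand of chromosome 1, opposite an intron of Iars2, the mitochondrial isoleucyl-tRNA synthetase gene. On their own strand Mir215 lies in an exon of the noncoding transcript 2010103J01Rik and Mir194-1 in an intron of it.

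Sense reads of microRNA genes numbered 7581366 in replicate 1 and 9865298 in replicate 2. Levels are given in CPM, counts scaled to 1000000 such reads, and are not divided by hairpin length. The mature arms of the genes described are 21 to 23 bases long, so levels per length of mature arm would stand in nearly the same proportions. Detection required 10 or more counts in both libraries, which 314 of 2202 genes reached (14.3%). Of the 10 genes 7 were detected: Mir34a, Mir34b, Mir34c, Mir449a, Mir192, Mir194-2 and Mir215. Mir215 only just passed, with 11 counts in each library, and Mir194-1, with 2 counts in replicate 1 and 6 in replicate 2, was nearest below. Intervals are 95% exact intervals and cover counting error only. They treat each read as independent, and these read counts do not tell PCR copies apart, so the intervals may be too narrow.

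The miR-34 family genes were led by Mir34c. Mir34c (ENSMUSG00000065587.1) was counted 54056 times in replicate 1 and 12802 times in replicate 2, which is 7130 CPM (7070 to 7190) and 1298 CPM (1275 to 1320). It was much higher in replicate 1, with rank 21 by counts among all 2202 genes there and rank 52 in replicate 2. Its mean was 4214 ± 4124 CPM (SD, n = 2), so the spread was nearly as large as the mean.

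Mir34a, transcribed on its own from chromosome 4 (ENSMUSG00000065493.1), was counted 14865 times in replicate 1 and 4664 times in replicate 2. These are 1961 CPM (1929 to 1993) and 473 CPM (459 to 487), at ranks 44 and 78, and the mean was 1217 ± 1052 CPM (SD, n = 2). Mir34a was thus also higher in replicate 1, and below Mir34c in both libraries. The Mir34c count was 3.64 times the Mir34a count in replicate 1 and 2.74 times in replicate 2.

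Mir34b, the partner of Mir34c (ENSMUSG00000065492.1), did not share this gap between the libraries. It was counted 3046 times in replicate 1 and 3646 times in replicate 2, or 402 CPM (388 to 416) and 370 CPM (358 to 382), and its mean was 386 ± 22.8 CPM (SD, n = 2). Its ranks, 93 and 89, were close together. The count ratio of Mir34c to Mir34b, which no scaling of the libraries can change, was 17.7 in replicate 1 (interval 17.1 to 18.4) and 3.51 in replicate 2 (interval 3.38 to 3.64). The first ratio was 5.05 times the second, and the intervals were far apart. Mir34b thus supplied 5.33% of the counts of the chromosome 9 pair in replicate 1 and 22.2% in replicate 2.

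The Mir449 genes were rare in these myocytes. Mir449a (ENSMUSG00000065575.1) was counted 192 times in replicate 1 and 36 times in replicate 2, or 25.3 CPM (21.9 to 29.2) and 3.65 CPM (2.56 to 5.05). It was higher in replicate 1, as Mir34a and Mir34c were, with a mean of 14.5 ± 15.3 CPM (SD, n = 2). Mir449c (ENSMUSG00000076146.1) had 3 and 2 counts. Mir449b (ENSMUSG00000078027.1) was counted 3 times in replicate 1 and 0 times in replicate 2. A fixed allowance of 3 counts for a count of 0 is 0.304 CPM, and the exact interval reaches 0.374 CPM. Levels this low do not show whether Mir449b and Mir449c differed between the libraries.

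**Figure D1:**
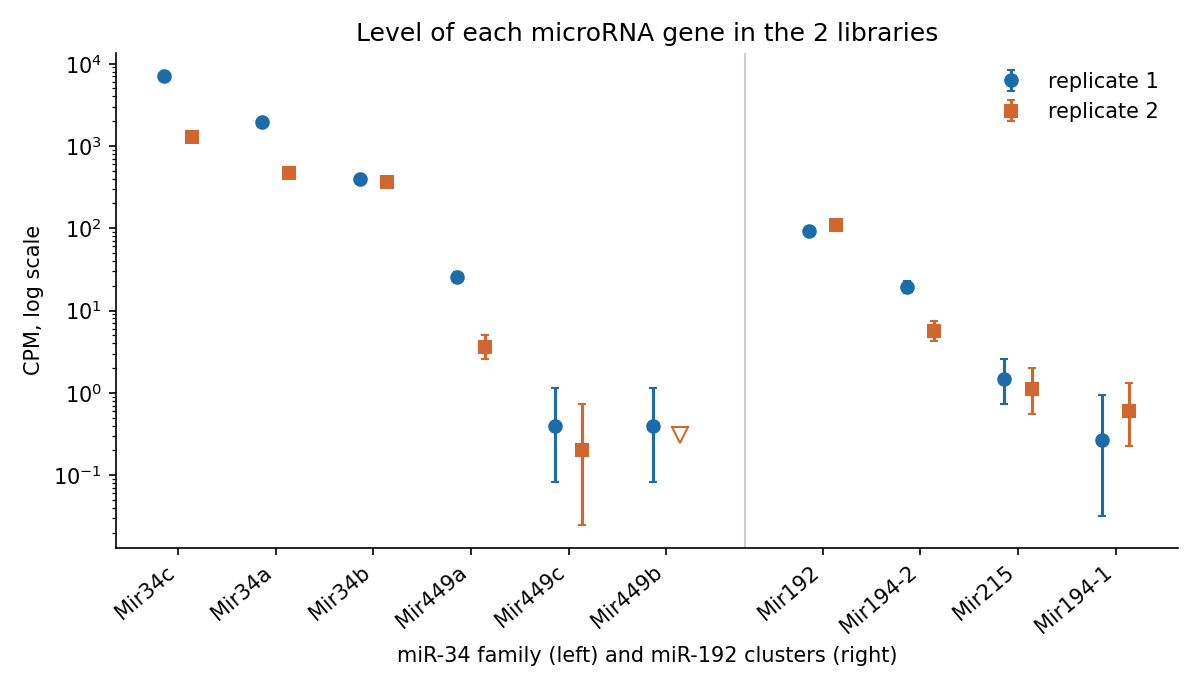
CPM (log scale) of each of the 10 genes in replicate 1 (circles) and replicate 2 (squares), miR-34 family genes on the left and miR-192 cluster genes on the right. Bars are 95% exact Poisson intervals for counting error, often smaller than the symbol. The open triangle marks Mir449b in replicate 2, with 0 counts, at a fixed allowance of 0.304 CPM and not at an interval end. Mir34c, Mir34a, Mir449a and Mir194-2 stand clearly higher in replicate 1, whereas Mir34b and Mir192 nearly coincide.

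Summed over its 6 genes, the miR-34 family took 0.952% of the assigned counts in replicate 1 (72165 counts) and 0.214% in replicate 2 (21150 counts), a mean of 5831 ± 5215 CPM (SD, n = 2). Mir34c made up 74.9% of the family's counts in replicate 1 (interval 74.6 to 75.2) and 60.5% in replicate 2 (59.9 to 61.2), a mean of 67.7% ± 10.2 (SD, n = 2). Mir34a held a near constant part, 20.6% and 22.1%. Mir34b was 4.22% of the family in replicate 1 and 17.2% in replicate 2. Mir449a was 0.266% and 0.170% of the family.

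The genes of the miR-192 clusters were far less abundant, and Mir192 gave most of their counts. Mir192 (ENSMUSG00000065523.1) was counted 706 times in replicate 1 and 1094 times in replicate 2, or 93.1 CPM (86.4 to 100.3) and 111 CPM (104 to 118). The libraries lay close together, at ranks 134 and 127, with a mean of 102 ± 12.6 CPM (SD, n = 2). The Mir34c count was 76.6 times the Mir192 count in replicate 1 and 11.7 times in replicate 2.

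Mir194-2, 115 bases from Mir192 on the same strand (ENSMUSG00000065582.1), was counted 147 times in replicate 1 and 56 times in replicate 2, or 19.4 CPM (16.4 to 22.8) and 5.68 CPM (4.29 to 7.37). Unlike Mir192, it was higher in replicate 1, and its mean was 12.5 ± 9.70 CPM (SD, n = 2). The ratio of Mir192 to Mir194-2 was 4.80 in replicate 1 (interval 4.02 to 5.78) and 19.5 in replicate 2 (interval 14.9 to 26.0). As reads of the shared miR-194-5p would fit both Mir194 genes, the Mir194-2 count and this ratio are uncertain, and the level of miR-194 was not determined.

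The chromosome 1 copy of the cluster was close to the limit of detection. Mir215 (ENSMUSG00000065562.1), the seed partner of Mir192, had 11 counts in each library, or 1.45 CPM (0.724 to 2.60) and 1.12 CPM (0.557 to 2.00). Mir194-1 (ENSMUSG00000065581.1) had 0.264 CPM in replicate 1 and 0.608 CPM in replicate 2, from counts that carry the same uncertainty as those of Mir194-2. Between these genes, whose 5p arms share the UGACCUA seed, Mir192 and Mir215, nearly all counts were thus of Mir192. Its count was 64.2 times that of Mir215 in replicate 1 (interval 35.7 to 129.2) and 99.5 times in replicate 2 (55.4 to 199.8). The counts do not separate the 5p and 3p arms, so the level of the seed itself was not measured. Summed over the 4 genes the clusters took 114 CPM in replicate 1 and 118 CPM in replicate 2, a mean of 116 ± 2.88 CPM (SD, n = 2). Reads of the full miR-194-5p appear to be missing from these sums, so the sums may be too low. The shares that follow are of the counted reads only. The sums lay close together although the make-up differed: Mir192 and Mir194-2 gave 81.5% and 17.0% of the counts in replicate 1, and 93.7% and 4.80% in replicate 2.

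**Figure D2:**
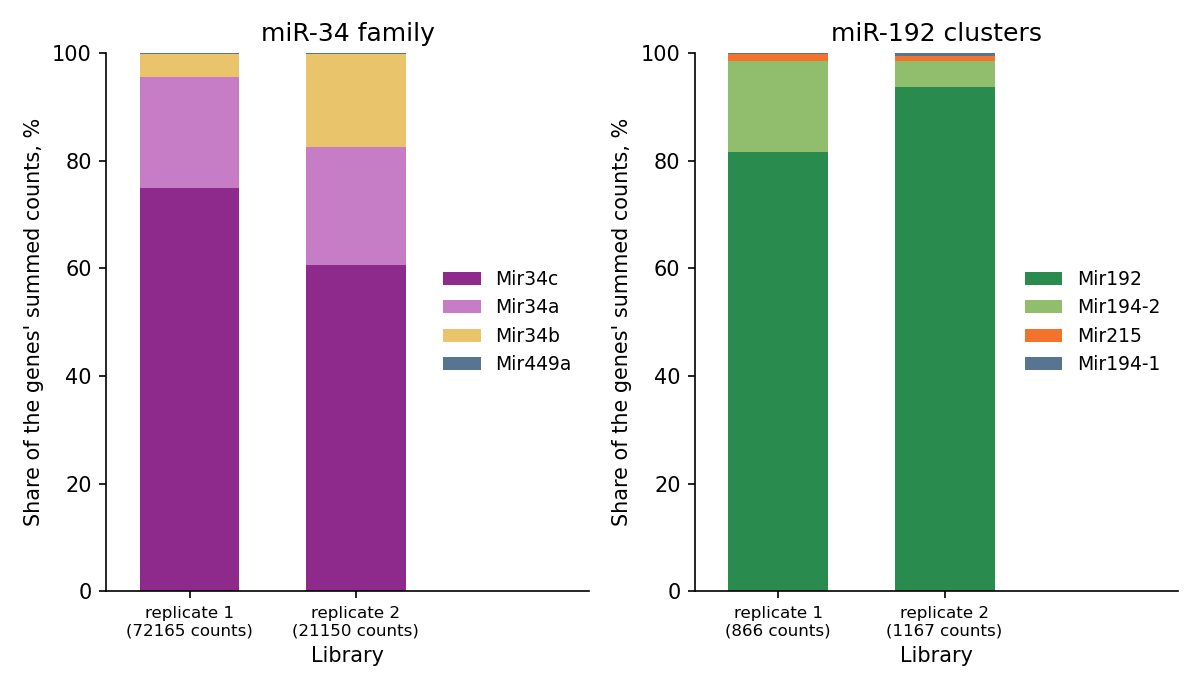
Share of each gene in the summed counts of the miR-34 family (left) and the miR-192 clusters (right) in each library, in percent of the total printed under the bar; Mir449b and Mir449c are too rare to draw. The share of Mir34b is larger in replicate 2 (17.2% against 4.22%), and that of Mir194-2 is larger in replicate 1 (17.0% against 4.80%). Reads of the full miR-194-5p appear to be missing from the miR-192 cluster totals.

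In order of mean CPM the genes stood as Mir34c, Mir34a, Mir34b, Mir192, Mir449a, Mir194-2, Mir215, Mir194-1, Mir449c and Mir449b. The ranges of the libraries overlapped for Mir34c and Mir34a, although Mir34c was the higher of the pair in each library. Mir34b lay below the range of Mir34a, and Mir192 below that of Mir34b. Mir449a and Mir194-2 had overlapping ranges and changed places between the libraries. The ranges of Mir194-1, Mir449c and Mir449b, with at most 6 counts each, overlapped as well.

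The difference between the libraries was set against that of all 314 detected genes by testing whether the counts of a gene split as the library totals do (exact binomial test, two-sided), with Benjamini-Hochberg adjustment over the 314. The test compares these libraries, not conditions, and knows counting error alone. In it 38.2% of all detected genes passed toward replicate 1 and 28.3% toward replicate 2. This lean of all genes rested on the scaling: 120 genes passed toward replicate 1 and 89 toward replicate 2 with totals, 109 and 99 with TMM factors, and 104 and 111 with Mir206 left out of the totals. Of the 7 detected genes described here, 5 were higher in replicate 1 (Mir34a, Mir34b, Mir34c, Mir449a and Mir194-2) and 1, Mir192, higher in replicate 2. Their median log2 ratio, replicate 1 over replicate 2, was 1.77, against 0.090 for all 314. The median absolute log2 ratio of all 314 was 0.51.

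Mir449a had the largest ratio of the 7, at 6.94-fold higher in replicate 1 (interval 4.84 to 10.2; adjusted p = 1.72e-36 in the exact binomial test), and ranked 4th of the 314 in that direction. Mir34c was 5.49-fold higher (5.39 to 5.60) and ranked 10th, and Mir34a was 4.15-fold higher (4.01 to 4.29) and ranked 17th. For both, the adjusted p was too small for the software to represent. Mir194-2 was 3.42-fold higher (2.49 to 4.73; adjusted p = 2.25e-16 in the exact binomial test) and ranked 21st. These 4 genes were thus among the 21 detected genes with the largest ratios toward replicate 1, a cut set by the rank of Mir194-2. The ratio of Mir194-2 is uncertain, since reads of the full miR-194-5p appear to be missing from its counts.

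The other 3 had ranks of 116 (Mir215), 154 (Mir34b) and 214 (Mir192) in the same order of 314. Mir192 was 1.19-fold higher in replicate 2 (1.08 to 1.31; adjusted p = 0.000547 in the exact binomial test). Mir215 was 1.30-fold higher in replicate 1 with an interval from 0.512 to 3.31 (adjusted p = 0.723 in the exact binomial test), so a difference of either direction was not detectable at its depth. Mir34b was 1.09-fold higher in replicate 1 (1.04 to 1.14; adjusted p = 0.00123 in the exact binomial test), but this call rested on the scaling. With TMM factors in place of totals its log2 ratio was 0.022 (adjusted p = 0.606 in the exact binomial test), and with Mir206 left out of the totals it was −0.056 (adjusted p = 0.156 in the exact binomial test). The other 6 genes kept their direction and their side of the threshold under each scaling tried.

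**Figure D3:**
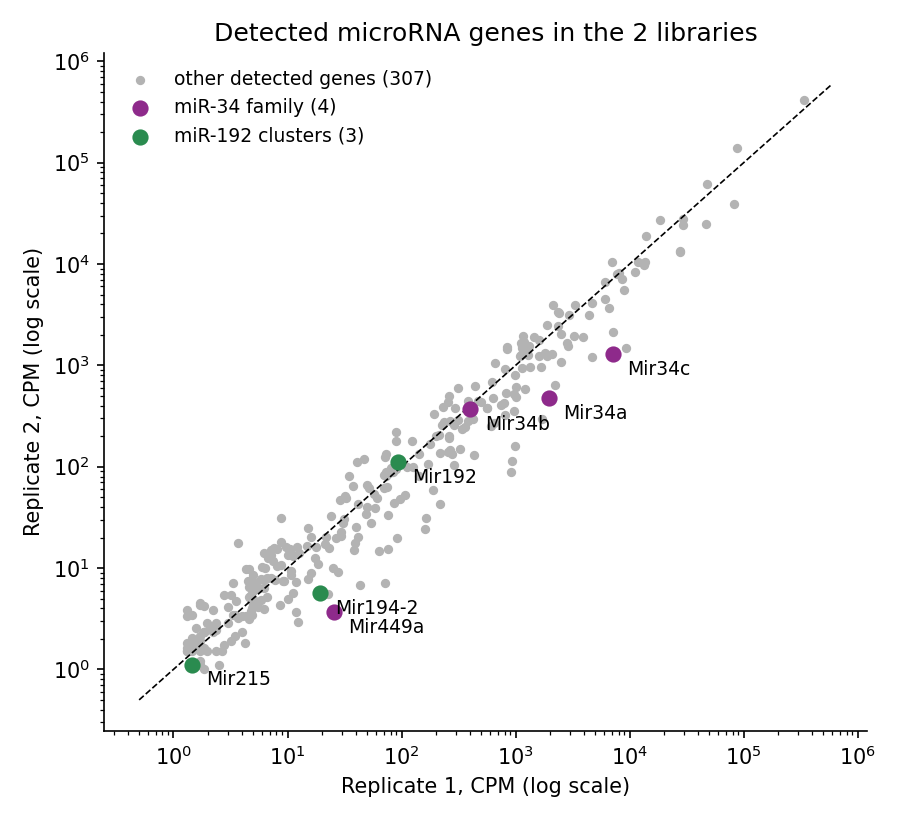
CPM in replicate 1 against CPM in replicate 2 (both log scales) for the 314 detected microRNA genes; the dashed line marks equal levels. Mir34c, Mir34a, Mir449a and Mir194-2 fall below the line, on the replicate 1 side, at the edge of the cloud, while Mir34b, Mir192 and Mir215 fall near the line.

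**Figure D4:**
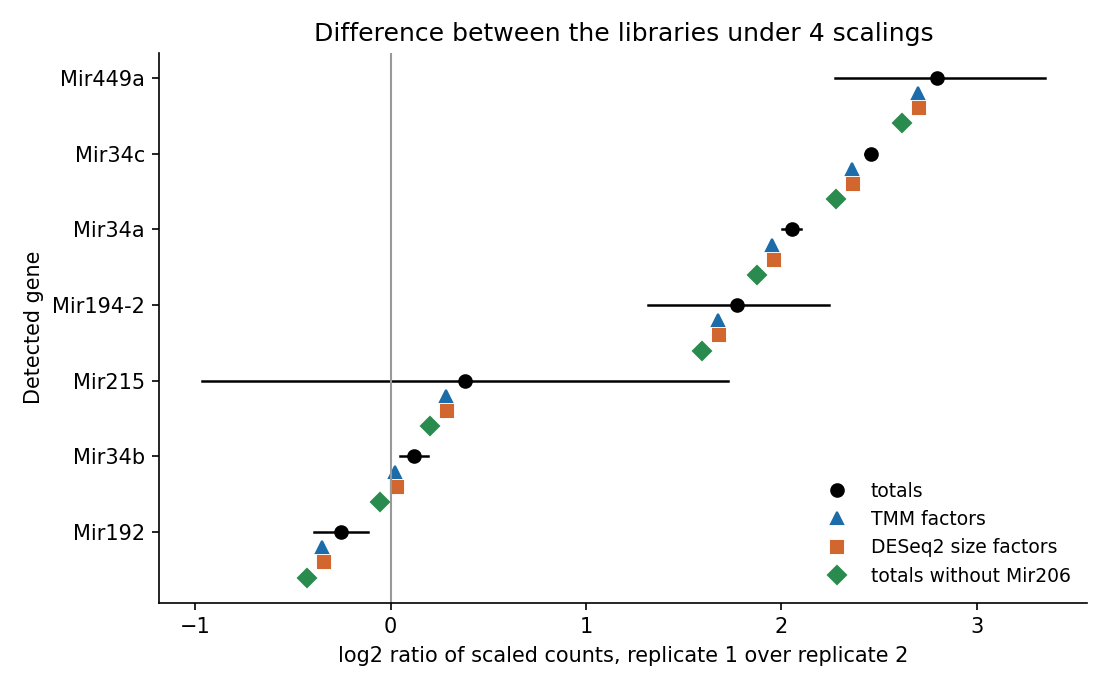
The log2 ratio of replicate 1 over replicate 2 for the 7 detected genes under 4 scalings of the libraries; the horizontal line is the 95% exact interval for counting error with library totals. Mir449a, Mir34c, Mir34a and Mir194-2 lie above 1.5 under every scaling shown, Mir192 lies below 0, and Mir34b crosses 0 when Mir206 is left out of the totals.

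Among the 307 other detected genes, those with levels nearest to Mir34c in both libraries were Mir31 (9340 and 1498 CPM in replicates 1 and 2), Mirlet7g (4669 and 1221 CPM) and Mir335 (7115 and 2157 CPM). Their distances from Mir34c in log2(CPM + 1) over the 2 libraries were 0.44, 0.62 and 0.73. Nearest to Mir192 were Mir128-1 (96.6 and 106 CPM), Mir193b (88.5 and 94.5 CPM) and Mir330 (80.2 and 98.0 CPM), at distances of 0.080, 0.24 and 0.28. The count of Mir128-1 is uncertain, since its hairpin shares 23 bases with that of Mir128-2. With 2 libraries this is a likeness of levels and no more.

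Other microRNAs have been tied to p53 as targets or through their processing. Of 8 such genes 7 were detected, 4 of them higher in replicate 1 and 3 higher in replicate 2 by the same exact test, beside 38.2% and 28.3% of all detected genes. Their median log2 ratio was 0.91. The 4 most abundant were Mir22 (47786 CPM in replicate 1 and 61207 in replicate 2), Mir143 (46403 and 24746 CPM), Mir149 (7740 and 7995 CPM) and Mir145a (1897 and 2489 CPM). Of these, Mir143 was 1.88-fold higher in replicate 1, and the remaining 3 were between 1.03-fold and 1.31-fold higher in replicate 2. The other 3 detected genes, Mir107, Mir15a and Mir16-1, were higher in replicate 1, by 10.3-fold, 3.48-fold and 2.45-fold. The differences toward replicate 1 were thus larger than those toward replicate 2. The counts of Mir107 and Mir16-1 are uncertain, since their hairpins share 24 bases with Mir103-1 and 23 bases with Mir16-2. Each of the 4 most abundant genes had a higher mean level than Mir34a, and Mir22, Mir143 and Mir149 a higher one than Mir34c.

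The labelled cell type was checked by 8 skeletal muscle microRNAs, which took 35.5% of the assigned counts in replicate 1 and 42.8% in replicate 2, nearly all from Mir206 with 340841 and 416794 CPM. Of the 8, 6 were detected, 3 of them higher in replicate 1 and 2 higher in replicate 2, and the sum followed Mir206. Mir133b, whose count is uncertain because its hairpin shares 21 bases with a Mir133a copy, had 13610 CPM in replicate 1 and 10568 CPM in replicate 2. The Mir1a and Mir133a copies on the list were rare, at most 4.22 CPM (Mir1a-2 in replicate 1), and neither Mir133a copy was detected. Their counts are uncertain as well, since each of these hairpins shares at least 28 bases with another on either strand. Mir499 (564 CPM in replicate 1 and 378 in replicate 2) and Mir208b (260 and 495 CPM) were also detected. Their hairpins shared at most 13 and 14 bases with another. By counts the check thus rested mainly on Mir206. Because the Mir449 and Mir192 genes are best known from epithelia and liver, markers of those cells were counted as well. Of 7 epithelial markers 2 were detected, beside 14.3% of all genes. Together the 7 had 81 counts in replicate 1 and 69 in replicate 2, Mir200a and Mir429 had 0 counts in both libraries, and the liver microRNA Mir122 had 8 and 4 counts. Mir192 alone had more counts in each library than these epithelial and liver markers together. Mir449a and Mir194-2 had more than these markers in replicate 1, and fewer, at 36 and 56 counts, in replicate 2. The endothelial Mir126a, which Mir126b overlaps on the other strand, was higher in replicate 1, at 217 CPM against 42.9 CPM in replicate 2. By the exact test 38.2% of all detected genes were also higher in replicate 1. The 4 blood markers summed to 101 CPM in replicate 1 and 183 in replicate 2, mostly from Mir142. Of the 2 detected, Mir142, whose hairpin shares 64 bases with Mir142b on the other strand, was higher in replicate 2. The red-cell Mir451a, which Mir451b overlaps on the other strand, was higher in replicate 1, at 11.9 CPM against 3.65 CPM in replicate 2. The part of other cells in the level of any gene described was not tested.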

How the data were processed

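Per the labels, total RNA of C2C12 myocytes was sequenced with a microRNA protocol and adapters were trimmed. The authors deposited whole-number read counts per microRNA gene, not normalized, for mm10 and GENCODE M21 per the deposited notes. Aligner and counting program: not given in the sources used here. Here, sense-strand counts were used, and all 2202 identifiers matched M21. Unmapped, multi-mapped (22.0% and 17.9% of reads in replicates 1 and 2), unassigned and ambiguous reads stayed out of totals. The table layout is that of a counter of uniquely mapped reads, and it does not separate the 5p and 3p arms.

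CPM, Poisson and Clopper-Pearson intervals, and the binomial test were computed with scipy 1.17.1. The test was checked on simulated counts with counting error only, so the check does not cover any further spread between libraries. TMM factors (edgeR 4.0.16) and DESeq2 1.42.0 size factors were alternatives. With 1 library on each side, a model with dispersion had no test. All 10 genes are named. The genes, lists and alternatives were chosen with earlier results of these data known. From the lists, the 4 most abundant p53-tied genes, Mir206 and markers at 0 are named, and the 3 genes nearest in level to the most abundant gene of each family. Other list genes were named after their values were seen.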

Additional observations from a re-analysis of the deposited data

Results flagged for a closer look

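Reads outside the sense counts were looked at where they exceeded the 3 counts that a count of 0 allows. On the strand opposite Mir194-1, 4 reads were counted in replicate 1 and 2 in replicate 2, against 2 and 6 on its own strand. Multi-mapped reads, which appear to enter no gene count, numbered 3378438 in replicate 1 and 3295854 in replicate 2. The tables do not say how many of them were miR-194-5p.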

How the results depend on the processing

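The alternatives changed the minimum count, the strand column and the scaling, and left out each replicate. Totals without Mir206 were added after the data were seen. With at least 100 counts in each library, 4 genes were detected instead of 7, and 3 instead of 5 were higher in replicate 1. Among all genes, 104 of 187 then passed toward replicate 1 and 62 toward replicate 2, against 120 and 89 of 314. The summed level of the miR-192 clusters moved from 116 CPM to 133 with either-strand counts, 59.8 with all reads as denominator and 188 without Mir206 in the totals. The either-strand totals used for scaling were smaller, 6839587 in replicate 1 and 8380107 in replicate 2. Opposite-strand reads of the clusters were only the 4 and 2 at Mir194-1. The log2 ratio of Mir34b was 0.033 with either-strand counts, 0.031 with DESeq2 size factors and 0.0061 with all reads as denominator, past the threshold in none of them, and it turned to −0.056 without Mir206. All reads as denominator and totals without Mir206 moved the median log2 ratio of all detected genes by −0.11 and −0.18. Leaving out a replicate gave 2144 to 9519 CPM for the miR-34 family, 114 to 118 CPM for the miR-192 clusters and 60.5% to 74.9% for the Mir34c share. The summed level of the miR-34 family was 2924 CPM with all reads as denominator and 9058 CPM without Mir206, against 5831 CPM. A changed denominator rescales all genes of a library alike. The shifts were smaller than the family's SD only because that SD was large, 5215 CPM against 2.88 CPM for the clusters. The level of the family was therefore not shown to depend less on the scaling. No paired analysis was possible because there is 1 group. Depth limits Mir215, Mir194-1, Mir449b and Mir449c, with at most 11 counts in a library.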
